A study of Sus scrofa with 2 samples.

Results

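Stellate and fibroblast nuclei of the pig pancreas were selected from 2 single-nucleus RNA-seq libraries on the UMIs (unique molecular identifiers, each a counted RNA molecule) of 7 genes, ABCA8, ADAMTSL3, SVEP1, C7, DCN, COL6A3 and RSPO3. A barcode with 270 to 3700 genes and fewer than 13000 UMIs was a member when these genes together held at least 3 UMIs and at least 0.25% of its UMIs, and more UMIs than the 5 mural genes RGS5, MYH11, NOTCH3, LMOD1 and ACTA2. The members were thus chosen on measured values, and the levels of these 12 genes are descriptions. Members numbered 352 of the 28097 barcodes within the limits. The WT library came from 1 wild-type Bama pig, and the PIGinH11 library from 1 transgenic Bama pig that carried knocked-in GIPRdn (a dominant-negative incretin receptor), hIAPP (human islet amyloid polypeptide) and PNPLA3 I148M (a lipase variant). The study's text places these transgenes under promoters specific to beta cells or the liver. Both pigs were 18 months old, had a control diet up to 6 months of age, and then received for 12 months the HFHSD, in which lard made up 10%, sucrose 37% and the control diet the remaining 53%. A single piece of pancreas per pig was sequenced, so the pig, the piece, the library and the genotype cannot be told apart, and no test between the groups can be made.

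Pancreatic stellate cells lie around acini and small ducts, where they store vitamin A as retinyl ester when quiescent. On activation they lose this store, take on features of myofibroblasts and lay down collagen, and they are known as the main source of scar tissue in the pancreas. Fibroblasts of the septa and the vessel adventitia share most of their matrix genes, so that separate nuclei of these cells are hard to tell apart by a few markers.

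Members made up a similar share of the barcodes in both libraries. They numbered 178 of 13189 barcodes in the WT library (1.35%, exact 95% Clopper–Pearson interval 1.16% to 1.56%) and 174 of 14908 in the PIGinH11 library (1.17%, 1.00% to 1.35%), and these intervals overlap. With every barcode thinned to 800 UMIs before the rule was applied, the order turned, at 1.17% in WT and 1.26% in PIGinH11. Intervals here and below cover counting error and no difference between animals. Depth differed more than number. WT members held a median of 3594.5 UMIs and 1753.5 genes, and PIGinH11 members 1546 UMIs and 1015 genes, a ratio of 2.33 in UMIs. The other barcodes differed in the same direction, with medians of 3092 and 1174 UMIs, a ratio of 2.63. Summed over the members, 701716 WT UMIs and 369736 PIGinH11 UMIs stood behind the levels below.

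The 7 genes took a median of 0.652% of the UMIs of a WT member and 0.592% of a PIGinH11 member, up to 2.20% and 2.56%. Just inside the threshold lay members at 0.252% and 0.258%, and just outside it 11 WT and 7 PIGinH11 barcodes at 0.2% to 0.25%. Members under 0.5% numbered 51 (28.7%) and 67 (38.5%). The minimum of 3 UMIs touched the shallower library more, since 34 PIGinH11 barcodes and 3 WT barcodes reached the percentage with fewer UMIs, and 18 and 2 members held exactly 3. The libraries had 60 barcode sequences in common, and 0 of these were members of both. Among the barcodes with the highest doublet scores were 9 WT members (5.06%) and 15 PIGinH11 members (8.62%).

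The label was checked against 12 fibroblast identity genes outside the rule, of which 11 were measured, which means at least 50 UMIs summed over the members of both libraries. Levels are given as CPM, the UMIs of a gene per 1000000 UMIs of the members. COL1A2, a chain of type I collagen, reached 617 CPM in WT members against 3.07 CPM in the other barcodes, and 430 CPM against 3.62 CPM in the PIGinH11 library. LUM, the collagen-binding proteoglycan lumican, was at 111 and 97.4 CPM in members, and at 0.639 and 1.35 CPM in the other WT and PIGinH11 barcodes. PDGFRA, the receptor that marks fibroblasts, reached 363 and 346 CPM, against 2.64 and 6.81 CPM elsewhere. After each nucleus was thinned to 500 UMIs, COL1A2 was found in 19.1% of WT and 17.8% of PIGinH11 members, beside 0.177% and 0.224% of the other barcodes; without thinning these shares were 74.2%, 40.2%, 0.899% and 0.523%. All 11 genes were thus higher in members than elsewhere in both libraries, and the label was kept.

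PDGFRB, a receptor of mural cells and stellate cells, stood at 118 and 133 CPM in members and was higher in the mural nuclei (at least 3 UMIs and 0.25% from the 5 mural genes), at 540 and 612 CPM. By a fixed rule, the 12 genes outside the selection rule with the largest level over the other barcodes in both libraries were ABCA9, COL1A2, PRDM6, ZFPM2, MGP, PID1, COL1A1, COL6A1, NHS, CRISPLD2, ABI3BP and CDH11. These include a lipid transporter (ABCA9), a cofactor of GATA factors (ZFPM2), matrix Gla protein (MGP), which inhibits calcification, and the mesenchymal cadherin CDH11. ZFPM2 was found in 153 of 178 WT and 136 of 174 PIGinH11 members. PID1, whose product acts on insulin and lipoprotein receptor signalling, was found in 172 and 141.

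**Figure D1:**
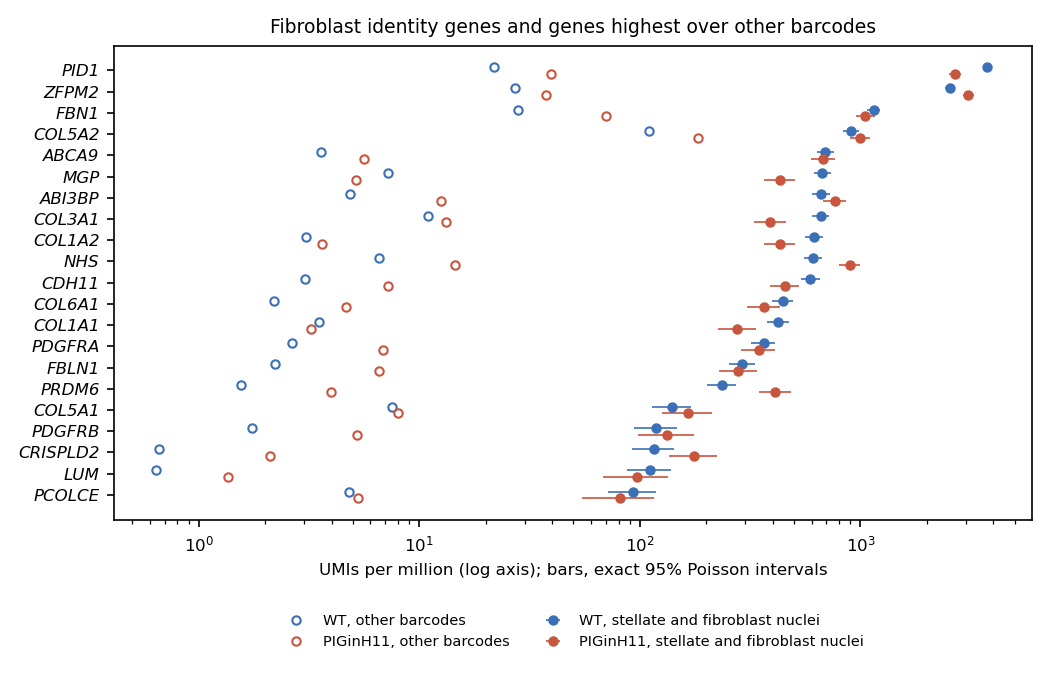
Levels of the measured fibroblast identity genes and of the 12 genes highest over other barcodes, in CPM on a log axis, for stellate and fibroblast nuclei (filled, with exact 95% Poisson intervals) and all other barcodes (open) of the WT and PIGinH11 libraries. Each gene sits far to the right of its level in the other barcodes in both libraries, as COL1A2 does at 617 and 430 against 3.07 and 3.62.

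Markers of other cell types were low but present among the members, and acinar RNA was the exception. The 10 acinar markers summed to 43751 CPM in WT and 8741 CPM in PIGinH11 members, with PRSS2 (trypsinogen) their most abundant gene. PRSS2 alone took 2.29% of WT and 0.138% of PIGinH11 member UMIs, beside 3.91% and 0.527% in the other barcodes. The 11 mural markers outside the rule that the matrix holds summed to 255 and 376 CPM, most of it SYNPO2, with LDB3 and RGS4 at 0 in both libraries. The 12 endothelial markers summed to 202 and 308 CPM, with FGD5 the most abundant. The 8 ductal markers summed to 1227 and 1131 CPM, most of it SLC4A4. The 12 endocrine markers summed to 446 and 130 CPM, and 102 of the 258 WT UMIs of INS lay in 1 nucleus, while NEUROD1 and SCG2 were at 0.

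Immune, glial, mesothelial and adipocyte markers were read in the same way. The 9 macrophage markers summed to 37.1 and 67.6 CPM, with CTSS their most abundant gene and CD163 and CSF1R at 0. The 11 lymphocyte markers summed to 289 and 168 CPM, with SKAP1 most abundant and CD3G and MS4A1 at 0. The 9 Schwann markers summed to 105 and 127 CPM, with ERBB3 most abundant and 1 of them at 0. The 7 mesothelial markers in the matrix summed to 92.6 and 94.7 CPM, with WT1 most abundant and CALB2, BNC1 and PKHD1L1 at 0, and the 11 adipocyte markers to 29.9 and 40.6 CPM, with GPD1 most abundant and CIDEC and TRARG1 at 0. Measured were 10 acinar, 4 ductal, 0 macrophage and 0 adipocyte markers, and 1 marker of each other type. Past 2-fold between the libraries were 7 of the acinar markers, INS (log2 ratio of PIGinH11 over WT -3.00) and ERBB3 (-1.02, a ratio that falls under 2-fold in 5 of 12 alternatives), all of them lower in PIGinH11 members. A count of 0 allows up to 3 UMIs, which is 4.28 CPM in WT and 8.11 CPM in PIGinH11 members. The part of these cell types in the ratios below was not tested, except where a ratio without the members rich in their markers is given.

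Of the 7 rule genes, SVEP1 passed 2-fold between the libraries and the other 6 did not. ABCA8, a lipid transporter, reached 1538 CPM in WT and 1571 CPM in PIGinH11 members, ADAMTSL3 1533 and 1490 CPM, and DCN, which encodes the proteoglycan decorin, 817 and 746 CPM. RSPO3, a Wnt-amplifying ligand, was at 713 and 584 CPM and COL6A3 at 674 and 444 CPM (log2 ratio -0.60). SVEP1, a large cell-adhesion matrix protein (ENSSSCG00000005455, chr1:251367401-251571799 in RefSeq, Sscrofa11.1), was at 670 CPM in WT and 1723 CPM in PIGinH11 members (1.36, 1.19 to 1.54), beside 1.45 in the other barcodes. C7, a late complement component, was at 1203 and 684 CPM (-0.81). Each gene helped to choose the members, so these values are descriptions. In the other barcodes the 7 genes together were higher in the PIGinH11 library (summed log2 ratio 1.16), and in the members they were not (0.02).

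Across the members, 4292 genes were measured. Of these, 138 (3.22%) were at least 2-fold higher and 203 (4.73%) at least 2-fold lower in PIGinH11 than in WT members, a rule of size with no test behind it. Below, "higher" and "lower" with no value stand for this 2-fold, and a call is lost where another processing brings the ratio under it; calls of named genes lost in at least 3 of the alternatives run are marked. The log2 ratio of PIGinH11 over WT had a median of 0.06 over the measured genes. Scaling by the median of ratios lowers each log2 ratio by 0.14 and gives 90 higher and 261 lower genes, so that 25.6% of these genes were higher in place of 40.5%. Among the 483 genes at least 4 times as high in members as in the other barcodes of both libraries, 31 were higher and 28 lower, with a median of 0.02.

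**Figure D2:**
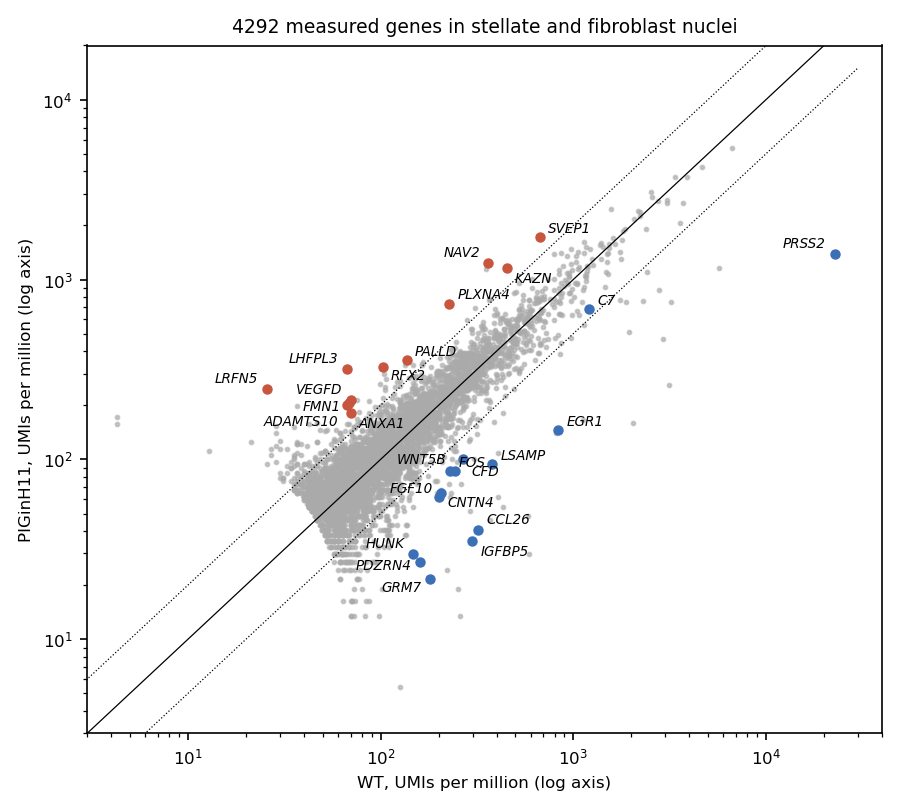
Level of the 4292 measured genes in WT (x axis) and PIGinH11 (y axis) stellate and fibroblast nuclei, in CPM on log axes; the solid line marks equal levels, the dotted lines 2-fold, and coloured points are SVEP1, C7, PRSS2 and 11 of the 12 highest (red) and the 12 lowest (blue) ratios chosen by rule. IGFBP5, CCL26 and EGR1 lie far below the dotted line, and LRFN5 far above it.

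The genes furthest apart were taken by rule from 645 genes with at least 100 UMIs, detected in at least 15 nuclei of the library where they were higher and at least 2 times as high in members as elsewhere in it. IGFBP5, which binds insulin-like growth factors (ENSSSCG00000025924, chr15:118861816-118877787), was at 298 CPM in WT (209 UMIs in 65 nuclei) and 35.2 CPM in PIGinH11 members (13 UMIs in 10 nuclei), a log2 ratio of -3.08 (-4.02 to -2.28). In the other barcodes it was at 10.7 and 9.96 CPM, a log2 ratio of -0.11. The lower level was thus seen in the members and not in the rest of the library.

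CCL26, a chemokine that attracts eosinophils (ENSSSCG00000039874, chr3:10381306-10385677), was lower as well. It was at 319 CPM in WT (224 UMIs in 71 nuclei) and 40.6 CPM in PIGinH11 members (15 UMIs in 11 nuclei), a log2 ratio of -2.98 (-3.84 to -2.22), and at 1.53 and 0.956 CPM in the other barcodes, a log2 ratio of -0.68. FGF10, a mesenchymal growth factor that acts on the pancreatic epithelium during development (ENSSSCG00000016878, chr16:28695465-28779953), was at 205 CPM in WT and 64.9 CPM in PIGinH11 members, from 144 and 24 UMIs, a log2 ratio of -1.66 (-2.35 to -1.03). Elsewhere it was at 1.13 and 2.83 CPM, a log2 ratio of 1.32. WNT5B, a ligand of non-canonical Wnt signalling, was at 244 and 86.5 CPM, a log2 ratio of -1.49 (-2.09 to -0.94), beside 0.86 in the other barcodes. These secreted factors were thus lower in PIGinH11 members, while FGF10 and WNT5B had positive ratios in the rest of the library. There the measured fibroblast identity genes had a positive median too, at 0.74.

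EGR1, CFD and FOS were lower in the members and in the rest of the library alike. EGR1, an immediate-early transcription factor, was at 832 CPM in WT (584 UMIs in 143 nuclei) and 146 CPM in PIGinH11 members (54 UMIs in 30 nuclei), a log2 ratio of -2.51 (-2.94 to -2.11), beside -1.83 in the other barcodes. CFD, the complement protease adipsin, was at 268 and 100 CPM, a log2 ratio of -1.42, beside -1.60. FOS stood at -1.41, beside -1.97. In endothelial nuclei, described below, FOS was not lower (0.27, -0.21 to 0.76, from 67 and 81 UMIs). CFD was at -0.37 there (-0.96 to 0.22) and EGR1 at -0.70 (-1.29 to -0.14). In mural nuclei FOS was at -3.33, from 10 and 1 UMIs.

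The other 5 of the 12 lowest were GRM7, PDZRN4, HUNK, LSAMP and CNTN4, of which some rest on few nuclei. The glutamate receptor gene GRM7 had a log2 ratio of -3.06, and 61 of its 127 WT UMIs lay in 1 nucleus. GRM7 was higher in mural nuclei, at 3636 and 3060 CPM, than in WT members at 181 CPM. PDZRN4 stood at -2.56 from 112 and 10 UMIs, with 33 of the WT UMIs in 1 nucleus and -0.33 in the EBF2 subset described below, and the kinase gene HUNK at -2.30 from 103 and 11 UMIs. LSAMP, a neuronal adhesion gene, was at 380 and 94.7 CPM (-2.01), and the contactin gene CNTN4 at 201 and 62.2 CPM (-1.69, lost in 3 of 12 alternatives). In the other barcodes LSAMP was higher in the PIGinH11 library by a log2 ratio of 0.74 and PDZRN4 by 1.42. In mural nuclei, however, PDZRN4 was lower in the PIGinH11 library as in the members, at 1002 and 255 CPM (-1.97, -2.76 to -1.25, from 78 and 20 UMIs). In endothelial nuclei PDZRN4 had the opposite direction (2.70, 1.17 to 4.68, from 4 and 26 UMIs).

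LRFN5, a synaptic adhesion gene, had the highest ratio among these 645 genes. It was at 25.7 CPM in WT (18 UMIs in 12 nuclei) and 246 CPM in PIGinH11 members (91 UMIs in 34 nuclei), a log2 ratio of 3.26 (2.52 to 4.08), beside -0.44 in the other barcodes. Its level was higher in endothelial nuclei, selected in like manner on 7 endothelial genes, where LRFN5 was at 886 and 732 CPM. NAV2, a cytoskeletal guidance gene, was at 362 and 1239 CPM (1.77, 1.55 to 2.00), beside -0.78 elsewhere. KAZN, a cell-junction gene, was at 452 and 1160 CPM (1.36, 1.15 to 1.57), beside -0.27. VEGFD, a lymphangiogenic ligand, was at 69.8 and 214 CPM (1.61, 1.08 to 2.16), beside 0.11. NAV2 had positive ratios in mural (0.80, 0.04 to 1.58) and endothelial nuclei (0.39, 0.19 to 0.60) too. KAZN was at 0.31 in mural and 0.75 in endothelial nuclei, with intervals that reached below 0. The requirement of 2 times the level elsewhere was met in the PIGinH11 library alone by LRFN5, NAV2 and FMN1, which in the WT library were lower in members than in the other barcodes. It was met in the WT library alone by GRM7, PDZRN4, HUNK, LSAMP and CNTN4. For these genes a difference from the other barcodes was thus part of the choice.

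LHFPL3 (2.24), PLXNA4 (1.70), RFX2 (1.66), FMN1 (1.59), ADAMTS10 (1.58), PALLD (1.38) and ANXA1 (1.38) were also among the 12 highest. LHFPL3 was higher in mural nuclei, at 976 and 1530 CPM, than in members, at 67.0 and 316 CPM, and 27 of its 117 PIGinH11 member UMIs lay in 1 nucleus. ANXA1, an anti-inflammatory phospholipid-binding protein whose call was lost in 3 of 12 alternatives, was higher in the other barcodes as well, at 2.01, as were LHFPL3 at 1.32 and the transcription factor gene RFX2 at 1.20. Of the 12 lowest and 12 highest genes, 13 kept a difference of at least 2-fold in the same direction under each alternative run, IGFBP5, CCL26, EGR1, FGF10, CFD, LRFN5, NAV2 and PALLD among them.

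**Figure D3:**
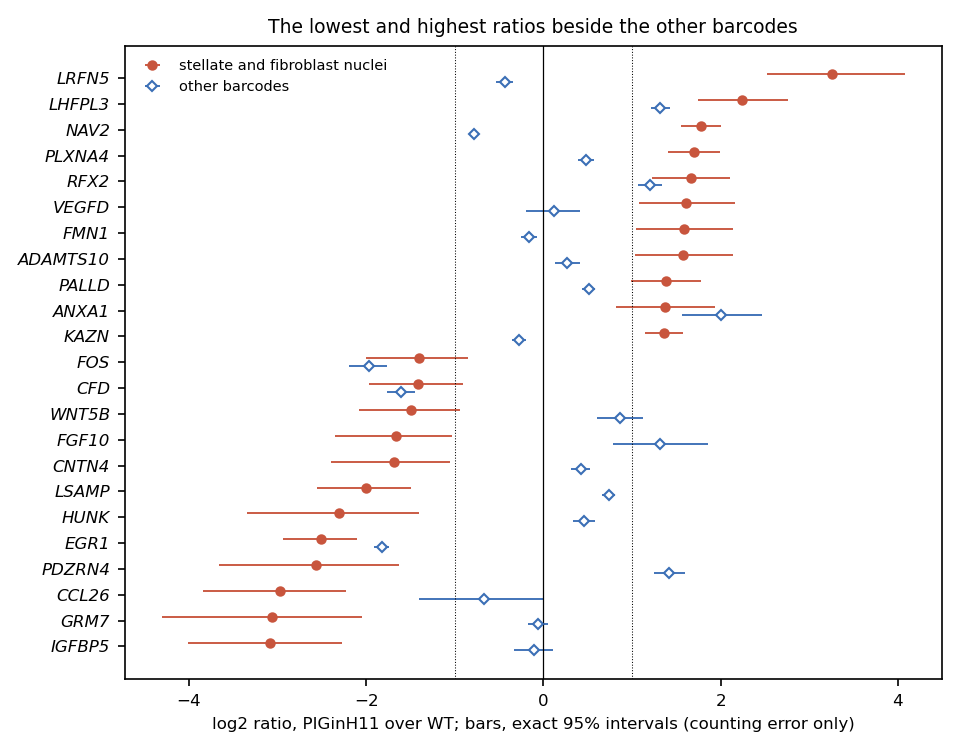
Log2 ratio of PIGinH11 over WT for the 12 lowest and 11 of the 12 highest genes in stellate and fibroblast nuclei (filled circles) and in all other barcodes (open diamonds), with exact 95% intervals that cover counting error; dotted lines mark 2-fold. For FGF10 (-1.66 and 1.32), PDZRN4 (-2.56 and 1.42) and NAV2 (1.77 and -0.78) the signs are opposite, and for EGR1, CFD and FOS they are the same.

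The lists described next were read as counts of measured genes past 2-fold, beside 3.22% higher and 4.73% lower over all measured genes. Of the 10 fibrillar collagens, which form the tensile fibres of scar tissue, 8 were measured, and 0 were higher and 0 lower. The chains of types I and III were nevertheless lower in level in PIGinH11 members. COL1A1 was at 422 and 276 CPM (log2 ratio -0.61, -0.95 to -0.28), COL1A2 at 617 and 430 CPM (-0.52, -0.79 to -0.26) and COL3A1 at 660 and 389 CPM (-0.76, -1.04 to -0.49). COL5A2 was at 906 and 998 CPM (0.14) and COL5A3 at 134 and 203 CPM (0.60, 0.14 to 1.05), so the minor type V chains did not share this direction. Summed, the fibrillar collagens were at 3053 CPM in WT and 2626 CPM in PIGinH11 members, a log2 ratio of -0.22 (-0.33 to -0.11), and the 12 alternatives gave -0.81 to -0.13.

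Of 13 other interstitial collagens, 8 were measured, 1 was higher and 1 lower, and their median log2 ratio was -0.70, beside 1.08 for the same genes in the other barcodes. COL14A1, which binds to the surface of collagen fibrils, was at 865 and 446 CPM (-0.95, -1.21 to -0.70). COL6A6 was lower (-1.26), from 50 UMIs in 11 WT nuclei and 11 UMIs in 6 PIGinH11 nuclei, and COL16A1 was higher (1.12, lost in 4 of 12 alternatives), from 28 and 32 UMIs. COL6A1 (-0.28) and COL6A2 (-0.68), 2 chains of the beaded-filament collagen VI, did not reach 2-fold.

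Basement membrane genes showed 0 of 10 measured genes past 2-fold, with a median of -0.01. LAMC1, the laminin gamma chain, was at 798 and 1396 CPM (0.81, 0.63 to 0.98), and NID1, which links laminin to collagen IV, at 829 and 492 CPM (-0.75). The collagen IV chains COL4A1 (0.31) and COL4A2 (-0.04) lay between. Proteoglycans (0 of 9 past 2-fold, median -0.12), elastic fibre genes (0 of 10, -0.07) and collagen-processing genes (0 of 11, 0.13) were likewise within 2-fold. Within them, TNXB, a matrix protein that spaces collagen fibrils, stood at 0.94, VCAN (versican) at -0.82, LTBP1, which holds latent TGF-beta in the matrix, at 0.76, and the collagen cross-linking hydroxylase PLOD2 at 0.71.

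Among matrix proteases and their inhibitors, 17 of 30 genes were measured, 2 were higher and 2 lower. ADAM19, a membrane sheddase, was lower at 86.9 and 16.2 CPM (-2.42), from 61 and 6 UMIs, and SERPINF1, an anti-angiogenic serpin, at 86.9 and 40.6 CPM (-1.10), beside -1.80 in the other barcodes. ADAMTS10, which acts on fibrillin microfibrils, was higher at 67.0 and 200 CPM (1.58, 1.03 to 2.14). PLAT, the tissue plasminogen activator, was also past 2-fold (5.20, 3.58 to 7.52), from 3 WT and 58 PIGinH11 UMIs, but its PIGinH11 UMIs lay in 3 nuclei, 30 of them in 1. Without the members rich in markers of other cell types its log2 ratio was -0.65. MMP2 (0.54) and MMP14 (0.83), a gelatinase and its membrane activator, and TIMP3 (-0.26), an inhibitor, stayed within 2-fold.

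**Figure D4:**
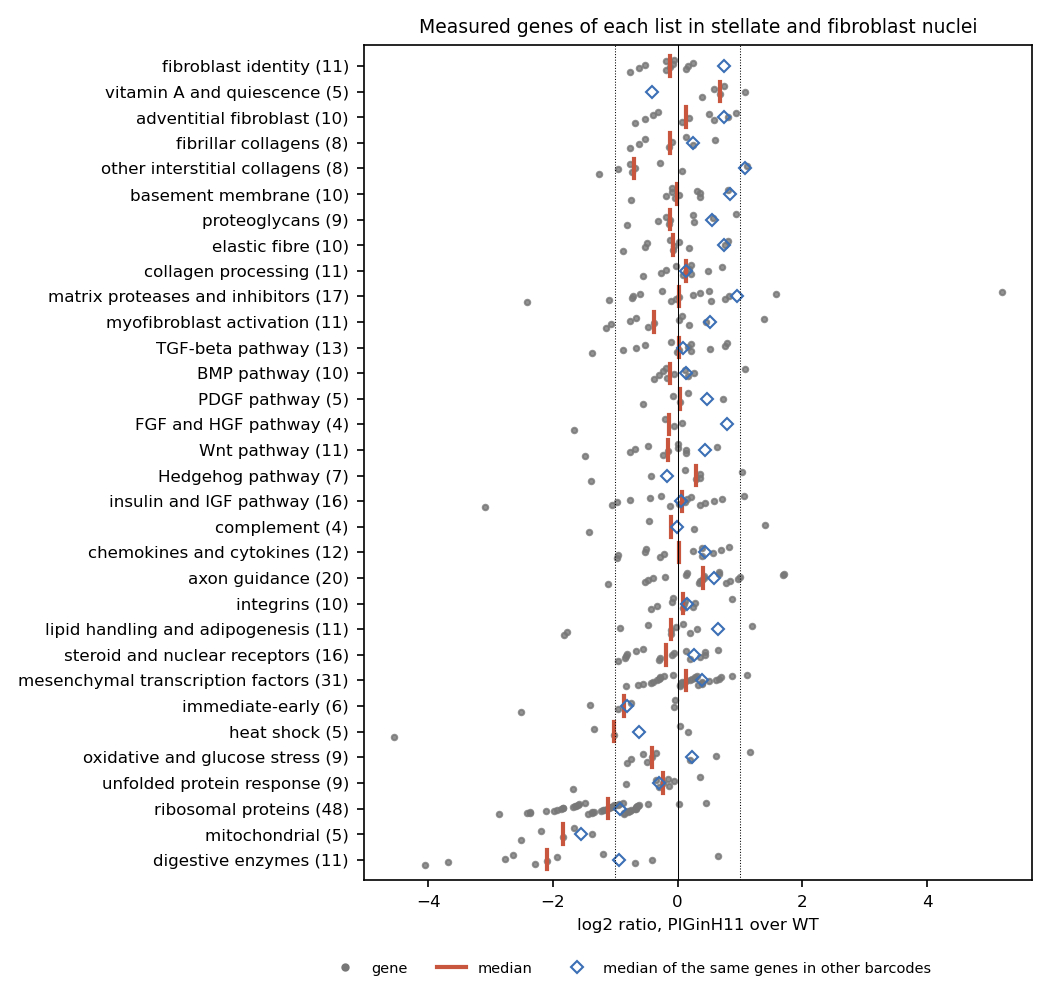
Log2 ratio of PIGinH11 over WT in stellate and fibroblast nuclei for the measured genes of each list (grey points; the number of genes is in brackets), with the list's median (red bar) and the median of the same genes in all other barcodes (blue diamond); dotted lines mark 2-fold. Ribosomal protein, mitochondrial and digestive enzyme genes sit to the left in members and elsewhere, while the matrix lists centre within 2-fold.

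Genes of vitamin A storage and quiescence were mostly too low to measure. Of 19 genes, 5 were measured, and CRABP1, CRABP2, CYP26B1, RBP4 and GFAP had 0 UMIs in the members of both libraries. The 5 measured genes, ALDH1A1, ALDH1A2, ALDH1A3, DHRS3 and RARB, had positive ratios with a median of 0.67, beside -0.41 for the same genes elsewhere. ALDH1A2, which makes retinoic acid, was at 349 and 460 CPM (0.40, 0.11 to 0.69), and DHRS3, a retinal reductase, at 98.3 and 157 CPM (0.67, 0.14 to 1.20). ALDH1A3 was past 2-fold (1.08, lost in 4 of 12 alternatives), from 26 and 29 UMIs.

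Of 26 myofibroblast activation genes 11 were measured, 1 higher and 2 lower. PALLD, an actin-bundling protein of contractile cells, was at 137 and 357 CPM (1.38, 0.99 to 1.78). PALLD had positive ratios in mural (1.36, 0.36 to 2.45) and endothelial nuclei (1.17, 0.58 to 1.79) too. FAP, the fibroblast activation protease, was at 108 and 48.7 CPM (-1.15, from 76 and 18 UMIs, lost in 3 of 12 alternatives), with negative ratios in mural (-1.43, -2.30 to -0.62) and endothelial nuclei (-0.97, -1.52 to -0.44) too, and CCN1, a matricellular protein, at 154 and 73.0 CPM (-1.08). TAGLN (0.19), CALD1 (0.46), VIM (-0.47), TPM1 (-0.66) and SPARC (-0.77) did not reach 2-fold, and LRRC15 and INHBA were at 0. The list held no common direction, with a median of -0.38. ACTA2, a rule gene that excluded members and so is limited by the rule, had 33 and 19 UMIs.

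In the TGF-beta pathway 0 of 13 measured genes were higher and 1 was lower. The ligand TGFB2 was at 205 and 143 CPM (-0.52), the receptors TGFBR1 at -0.10, TGFBR2 at 0.03 and TGFBR3 at 0.17, and the signal transducer SMAD3 at 114 and 197 CPM (0.79, 0.31 to 1.27). The lower gene was SKIL, a feedback repressor of SMAD signalling (-1.37, from 54 and 11 UMIs). Of 10 measured BMP pathway genes, the ligand BMP6 was higher at 61.3 and 130 CPM (1.08), a call lost in 7 of 12 alternatives (down to 0.12), and the receptors BMPR1A (-0.18), BMPR2 (0.11) and ACVR1 (-0.06) lay close to 0. In the PDGF pathway 0 of 5 measured genes passed 2-fold. The receptors PDGFRA (-0.07) and PDGFRB (0.16) differed little, while the ligand PDGFD was at 333 and 554 CPM (0.73, 0.46 to 1.01).

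Of the FGF and HGF pathway, 4 of 11 genes were measured. FGF10 was the gene past 2-fold, while FGF2 (-0.06), HGF (0.07) and the receptor FGFR1 (-0.20) differed little. In the Wnt pathway 1 of 11 measured genes was past 2-fold, WNT5B, and the antagonist DKK2 was at 524 and 308 CPM (-0.77, -1.08 to -0.46), beside 2.01 in the other barcodes. The receptor ROR2, which binds Wnt5 ligands, was at 242 and 376 CPM (0.63), the effector TCF7L2 at 846 and 847 CPM, and the target AXIN2 at -0.47.

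In the Hedgehog pathway the ligands SHH, IHH and DHH had 0 UMIs in members. PTCH1, receptor and target of the pathway, was lower at 107 and 40.6 CPM (-1.40, from 75 and 15 UMIs), and the co-receptor BOC higher at 125 and 257 CPM (1.03), a call lost in 9 of 12 alternatives (down to 0.32). The transducers SMO (0.36), GLI2 (0.12) and GLI3 (0.36) did not reach 2-fold.

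Insulin and insulin-like growth factor signalling had 16 measured genes, 1 higher and 2 lower. Beside IGFBP5, the lower gene was PIK3R1, the regulatory subunit of PI3-kinase, at 973 and 471 CPM (-1.05, -1.30 to -0.81, lost in 3 of 12 alternatives), with -0.51 in the other barcodes. The ligand IGF1 was at 302 and 179 CPM (-0.76, -1.18 to -0.35), and PAPPA, a protease that frees IGFs from binding proteins, at 75.7 CPM in PIGinH11 members with a log2 ratio of -0.97. The receptors INSR (0.35) and IGF1R (0.22) did not reach 2-fold, and IGF2R did (1.07, from 28 and 31 UMIs), a call lost in 5 of 11 alternatives (down to 0.42). IRS1 stood at -0.12, IRS2 at 0.72 and FOXO1 at -0.45.

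Of 13 complement genes 4 were measured. C4A was at 47.0 and 124 CPM (1.40, 0.73 to 2.09) and CFD was lower, while C3 (0.26) and the C1 inhibitor SERPING1 (-0.45) did not reach 2-fold. Of the 26 chemokine and cytokine genes of the list, 12 were measured and 0 passed 2-fold, while IL6, CXCL8, LIF and CCL11 had 0 UMIs. The list did not hold the chemokine gene CCL26, which was lower in PIGinH11 members as given above. The alarmin IL33 was at 75.5 and 122 CPM (0.69), the stem cell factor gene KITLG at 78.4 and 40.6 CPM (-0.95), CXCL12 at -0.29 and the LIF receptor LIFR at 651 and 855 CPM (0.39, 0.18 to 0.60).

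Axon guidance and adhesion genes, which also act in cell positioning outside the nervous system, had 20 measured members, of which 3 were higher and 1 lower, with a median of 0.41, beside 0.58 elsewhere. Among the higher genes, PLXNA4, a semaphorin receptor, was at 227 and 736 CPM (1.70, 1.41 to 1.99), and SEMA6D at 74.1 and 149 CPM (1.01, lost in 6 of 12 alternatives, and -0.10 in the NEGR1 subset). The lower gene was the adhesion gene NEGR1, at 2401 and 1103 CPM (-1.12, -1.28 to -0.96), from 1685 and 408 UMIs. NEGR1 was higher in the rest of the PIGinH11 library (0.84). The guidance ligands SLIT2 (-0.20) and SLIT3 (0.34), their receptors ROBO1 (-0.47) and ROBO2 (0.43), and the netrin gene NTN1 (0.77) stayed within 2-fold. Of 10 measured integrins 0 passed it.

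Lipid handling and adipogenesis genes had 11 measured members, 1 higher and 2 lower. PPARG, the main adipogenic nuclear receptor, was at 61.3 and 141 CPM (1.20, 0.59 to 1.82), from 43 UMIs in 15 WT and 52 UMIs in 22 PIGinH11 nuclei, beside 1.40 elsewhere. Its call was lost in 4 of 12 alternatives, down to 0.56. APOD, a lipocalin of fibroblasts, was at 95.5 and 27.0 CPM (-1.82), and CYP1B1, an enzyme of steroid and retinoid metabolism, at 111 and 32.5 CPM (-1.78), with 0.19 and -0.05 in the other barcodes. ABCA1, the cholesterol exporter, was at 365 and 192 CPM (-0.93). DLK1, a preadipocyte gene, was at 0.

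Of 16 measured steroid and nuclear receptor genes 0 passed 2-fold. The glucocorticoid receptor NR3C1 stood at -0.09, and the glucocorticoid-responsive genes of the list at -0.82 (FKBP5), -0.67 (KLF9), -0.55 (ZBTB16), -0.05 (TSC22D3) and 0.37 (PER1). Of 31 measured mesenchymal transcription factors, EBF3 was higher (1.11, lost in 4 of 12 alternatives) and 0 were lower. EBF1, a transcription factor of stromal and B cells, was at 6629 and 5363 CPM (-0.31, -0.38 to -0.23), ZEB1 at 1134 and 1615 CPM (0.51), FOXP2 at 520 and 952 CPM (0.87), and SOX6 at 1042 and 668 CPM (-0.64). Of 20 stellate marker genes that the study chose on these libraries, and which therefore are no independent evidence, 0 were higher and 1, NEGR1, was lower.

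Immediate-early, heat shock, unfolded protein response, ribosomal protein and mitochondrial genes had negative medians in members and in the other barcodes. The heat shock median (-1.02) turned to 0.46 after free RNA was subtracted, over the 3 genes that then had a finite ratio. Free RNA stands here for the profile of all other barcodes, not for one of empty droplets. Immediate-early genes had 0 of 6 higher and 2 lower, with a median of -0.86, beside -0.81 elsewhere. Of 5 measured heat shock genes 3 were lower, namely HSP70.2 (89 and 2 UMIs), HSP90AA1 (-1.02, lost in 3 of 11 alternatives) and HSP90B1 (-1.34). HSP70.2 stood at -4.55 (-7.62 to -2.66), and at -5.76 in the other barcodes. XBP1, the transcription factor of the unfolded protein response, was the lower gene among 9 (-1.68), and ARRDC3, an arrestin-domain gene, the higher gene among 9 oxidative and glucose stress genes (1.16, lost in 3 of 12 alternatives). TXNIP, a glucose-induced arrestin that binds thioredoxin, was at 564 and 400 CPM in members (-0.50, -0.78 to -0.22), and at 290 and 649 CPM elsewhere (1.16). In members it stood at -1.06 in the EBF2 and 0.21 in the NEGR1 subset, and at -1.20 after free RNA was subtracted, so the alternatives did not share 1 direction.

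Of 48 measured ribosomal protein genes 29 were lower and 0 higher, with a median of -1.12, beside -0.93 elsewhere. The 5 measured mitochondrial genes were lower, with a median of -1.84, beside -1.55, and so were 8 of 11 digestive enzyme genes. Ribosomal protein genes took 0.550% of WT and 0.262% of PIGinH11 member UMIs, mitochondrial genes 0.102% and 0.0303%, and digestive enzymes 4.49% and 0.892%. In the other barcodes these shares were 0.628% and 0.335%, 0.134% and 0.0490%, and 8.62% and 4.64%. The part of free RNA in these differences was not tested.

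Gene length moved with the ratio as well. Of the measured genes 89.6% had a length from RefSeq, and they were split into 5 bins of near equal number. In the shortest bin, with a median of 22.1 kb, 106 of 770 genes (13.8%) were lower and the median log2 ratio was -0.08. In the longest, with a median of 309 kb, 20 of 769 were lower and 40 (5.20%) higher, with a median of 0.12. The other barcodes gave -0.04 and 0.22 in these bins.

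Members varied among themselves along an axis that both libraries shared. The axis was the leading principal component of 169 genes in WT members, those with at least 200 UMIs and at least 4 times the level of other WT barcodes, and it held 10.0% of their variance. The weights of these genes on the leading component of PIGinH11 members, computed apart, correlated with the WT weights across genes (r = 0.835), a description in which genes are not independent replicates. The 8 genes at one end were PAQR9, RGS6, EBF2, ZFPM2, THSD4, FBN1, PLXDC2 and STON2, and those at the other THSD7A, ADAM22, NEGR1, ADAMTSL1, GNA14, CA10, HPSE2 and ROBO2. EBF2 is a transcription factor of adipocyte precursors and adventitial cells, and FBN1 encodes fibrillin of the microfibrils.

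Nuclei were put in the EBF2 or the NEGR1 subset by the end with more UMIs, a choice made after the data were seen and a range, not a pair of cell types. The EBF2 subset held 78 WT members (43.8%, 36.4% to 51.4%) and 86 PIGinH11 members (49.4%, 41.8% to 57.1%), and the NEGR1 subset 98 (55.1%, 47.4% to 62.5%) and 82 (47.1%, 39.5% to 54.8%), with 2 and 6 ties. The intervals of the libraries overlap. The split is not independent of the ratios between the libraries, since the genes of the NEGR1 end summed to 7581 CPM in WT and 5801 CPM in PIGinH11 members and those of the EBF2 end to 8137 and 8582 CPM, and NEGR1 itself was lower in PIGinH11 members. With NEGR1 left out of its end, the EBF2 subset held 90 WT (50.6%) and 95 PIGinH11 members (54.6%). In 94 WT and 95 PIGinH11 members at least 80% of the end UMIs came from a single end, and 21 and 27 lay between 40% and 60%, while 2 PIGinH11 members had no UMI of either end. Some PIGinH11 members held very few end UMIs, such as 1 and 0 or 2 and 0, where an extreme share says little. The part of depth in these counts was not tested. The EBF2 subset was deeper, with medians of 4127 against 3066.5 UMIs in WT and 2189.5 against 1313.5 UMIs in PIGinH11 members.

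Genes of adventitial fibroblasts, which surround vessels and septa, stood higher in the EBF2 subset of both libraries. Of 10 measured genes of that list outside the axis ends, 10 were higher there, by any size, in both libraries and 8 at least 2-fold so in both. Over the 4276 measured genes outside the axis ends, 1343 were higher by any size in both and 137 at least 2-fold so. Since the subsets were made from these nuclei, this is a description. The 10 acinar markers were lower, by any size, in the EBF2 subset of both libraries. They summed to 35811 and 50638 CPM in the WT EBF2 and NEGR1 subsets, and to 6287 and 12229 CPM in those of PIGinH11. The 5 measured mitochondrial genes were lower there too, at 764 and 958 CPM in WT, and 137 and 284 CPM in PIGinH11. The part of acinar or free RNA in the split was not tested. MFAP5, a microfibril protein, had 50 and 2 UMIs in the WT EBF2 and NEGR1 subsets (144 and 5.77 CPM), and 47 and 1 in those of the PIGinH11 library. PI16, a marker of universal adventitial fibroblasts, had 39 and 6 WT UMIs and 24 and 0 PIGinH11 UMIs; the count of 0 allows up to 20.8 CPM. SFRP2, a Wnt modulator, had 70 and 6 WT UMIs, and 23 and 1 PIGinH11 UMIs. SEMA3C was at 583 and 127 CPM in WT, and at 338 and 118 CPM in the PIGinH11 library, but SEMA3C and GSN of this list were among the 169 genes that made the axis.

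The 4 measured complement genes and 6 of 8 fibrillar collagens were also higher, by any size, in the EBF2 subset of both libraries, with 2 fibrillar collagens lower. The fibrillar collagens COL1A1, COL1A2, COL3A1 and COL5A2 were among the 169 genes that made the axis, so their count is not independent of the split. Of 8 other interstitial collagens 2 were higher and 2 lower. C3 was at 158 and 20.2 CPM in the WT EBF2 and NEGR1 subsets and at 164 and 6.93 CPM in the PIGinH11 subsets, and CFD at 414 and 124 CPM, then 128 and 41.6 CPM. COL1A1 (log2 ratio of the EBF2 over the NEGR1 subset 1.11 in WT and 0.96 in PIGinH11), COL1A2 (1.03 and 1.03) and COL14A1 (1.38 and 1.02), all 3 among the 169 genes that made the axis, were higher in the EBF2 subset of both libraries. Toward the NEGR1 end lay COL15A1, a basement membrane zone collagen (-1.52 and -1.32), HSD11B1, which regenerates active glucocorticoid (-1.27 and -1.91), NTN1 (-1.81 and -2.13) and PDGFRB (-0.62 and -1.65). Of the 11 measured myofibroblast activation genes, 6 were lower and 1 higher, by any size, in the EBF2 subset of both libraries, beside 1217 lower and 1343 higher of the 4276 genes. THBS1 and EGFLAM, which were named after their values were seen, stood at -1.38 and -2.44, and at -3.64 and -2.83, THBS1 being 1 of the 169 axis genes. EGFLAM encodes the matrix protein pikachurin, and THBS1 encodes thrombospondin 1, an activator of latent TGF-beta. Of 293 genes at least 2-fold higher in the WT EBF2 subset, 232 had the same sign in PIGinH11 members and 137 were at least 2-fold higher there. Of 229 at least 2-fold lower, the counts were 174 and 92.

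**Figure D5:**
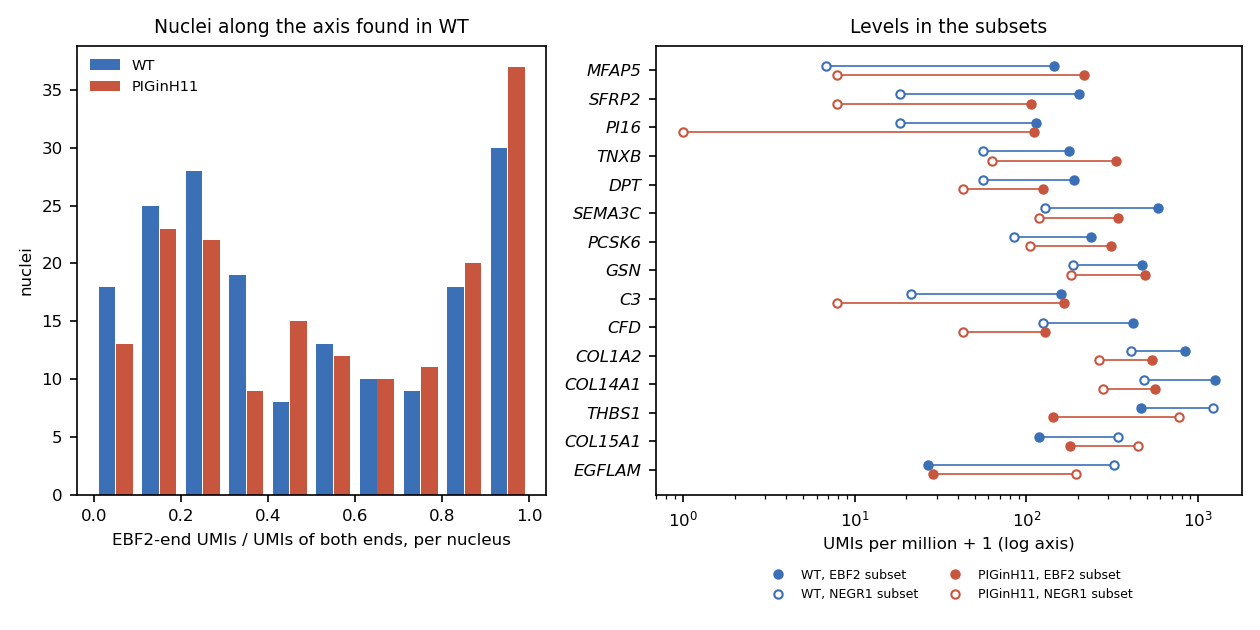
Left, number of stellate and fibroblast nuclei by the share of EBF2-end UMIs among the UMIs of both axis ends, in equal bins, for the WT and PIGinH11 libraries, without the 2 PIGinH11 nuclei that held no such UMI. Right, levels (CPM plus 1, log axis) in the EBF2 (filled) and NEGR1 (open) subsets of each library; MFAP5, PI16 and SFRP2 are higher in the EBF2 subset and EGFLAM and COL15A1 in the NEGR1 subset of both.

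The differences between the libraries were then read within each subset. IGFBP5 was lower in PIGinH11 members of the EBF2 subset (-4.09, -5.99 to -2.69) and of the NEGR1 subset (-2.24, -3.50 to -1.20), and so were CCL26 (-2.78 and -3.44), FGF10 (-1.57 and -1.64), EGR1 (-2.42 and -2.40) and CFD (-1.69 and -1.58). KAZN (1.28 and 1.55), PALLD (1.31 and 1.48) and NAV2 were higher in both. These 8 genes were also past 2-fold in the same direction in both subsets when NEGR1 was left out of its end. IGFBP5 then stood at -3.18 in the EBF2 and -3.49 in the NEGR1 subset, so the order of the subsets turned for this gene. Other ratios past 2-fold held in 1 subset and not in the other. PDZRN4 was at -0.33 (-2.96 to 1.89) in the EBF2 subset, from 6 and 3 UMIs, and at -2.86 in the NEGR1 subset. WNT5B (-2.40 and -0.79), FOS (-1.78 and -0.92), VEGFD (1.90 and 0.91), FMN1 (2.61 and 0.88) and ADAMTS10 (1.65 and 0.78) were under 2-fold in the NEGR1 subset. NAV2 was at 575 and 1434 CPM in the EBF2 subset (1.32) and at 153 and 929 CPM in the NEGR1 subset. SVEP1 was at 695 CPM in the WT and 2205 CPM in the PIGinH11 EBF2 subset (1.66, 1.44 to 1.89), and at 655 and 1005 CPM in the NEGR1 subset (0.62, 0.31 to 0.92). C7 was at 1049 and 379 CPM in the EBF2 subset (-1.47) and at 1371 and 1109 CPM in the NEGR1 subset (-0.31). For LRFN5 and RFX2 the PIGinH11 UMIs lay nearly all in the EBF2 subset, with 86 against 4 and 117 against 3. For these genes the sizes differed between the subsets, and with 1 library per group this was not tested.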

How the data were processed

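Nuclei from 1 piece of pancreas per pig were profiled on the 10x Genomics platform. The deposited matrices hold raw UMI counts per gene and barcode, which the authors made with Cell Ranger on Sscrofa11.1; the submitters' processing notes and methods give v3.1.0 and the file headers v5.0.0. The matrices list 31908 genes; for 841 of the 15410 that lacked a symbol, the reference table supplied one. The limits on genes and UMIs removed 430 WT and 56 PIGinH11 barcodes. The members and gene lists were chosen with earlier results of these data known.

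Counts were summed over the members of a library and divided by their total (CPM). Log2 ratios have exact conditional binomial 95% intervals, shares Clopper–Pearson and CPM Poisson intervals. The interval function was tested on simulated data. Genes with at least 50 UMIs over both libraries were measured. "Other barcodes" are those within the limits that are not members. Named were the rule genes, list genes, the 12 largest and 12 smallest log2 ratios, and, outside the rule genes, the 12 highest levels over other barcodes (offset 1 CPM, at least 100 UMIs). Doublets were not removed; an alternative left out the highest Scrublet scores (scanpy v1.11.5), which 10.2% of the other WT and 12.0% of the other PIGinH11 barcodes reached. Alternatives changed the scaling, denominator, averaging, depth, free RNA, rule, UMI minimum or members. No test between the groups was made. Coordinates and lengths are from RefSeq by symbol. Python v3.11.15, numpy v2.4.6, scipy v1.17.1 and seed 0 were used. Some genes that these rules name are not reported here.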

Additional observations from a re-analysis of the deposited data

Results flagged for a closer look

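For 9 named genes the log2 ratio of PIGinH11 over WT passed 2-fold in the members and had the opposite sign, by at least 0.5, in the other barcodes; with 1 library per group the difference was not tested. Of the lower genes, PDZRN4 was at -2.56 in the members and 1.42 elsewhere, ADAM19 at -2.42 and 0.95, LSAMP at -2.01 and 0.74, and FGF10 at -1.66 and 1.32. WNT5B was at -1.49 and 0.86, COL6A6 at -1.26 and 1.33, FAP at -1.15 and 0.60, and NEGR1 at -1.12 and 0.84. NAV2 was the higher gene, at 1.77 and -0.78. THBS1 and NTRK3, given under the other observations and chosen after their values were seen, had such opposite ratios too. Positive ratios elsewhere were not particular to these genes. In the other barcodes the median was 0.74 for the measured fibroblast identity genes and 1.07 for the 7 rule genes, beside 0.08 over all measured genes. The other barcodes include 34 PIGinH11 and 3 WT barcodes that reached the percentage of the rule with fewer than 3 UMIs, and their part was not tested. The sign elsewhere was not shared by each class of nuclei. In mural nuclei PDZRN4 was at -1.97, FAP at -1.43 and NAV2 at 0.80, the direction seen in the members, and in endothelial nuclei FAP was at -0.97 and NAV2 at 0.39, while PDZRN4 was at 2.70. PDZRN4 rested on 10 and ADAM19 on 6 PIGinH11 UMIs, and PDZRN4 was at -0.33 in the EBF2 subset. PDZRN4, LSAMP and NAV2 were named for a level in members of at least 2 times that elsewhere in the library where they were higher, which they did not reach in the other library, so a gap to the other barcodes was part of their choice.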

How the results depend on the processing

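Shares of members kept within their intervals, except at a threshold of 0.5% of UMIs (0.963% WT, 0.718% PIGinH11) and with 4 rule genes (1.08%, 0.946%). Higher and lower genes (138 and 203) became 398 and 387 after thinning to 800 UMIs, 971 and 355 after free RNA subtraction, 498 and 521 at a minimum of 20 UMIs, 50 and 84 at 100 UMIs, 86 and 133 in the NEGR1 subset alone, and 90 higher under median-of-ratios scaling; with a minimum of UMIs or 1 subset, a different number of genes was measured, and for the others the cause was not tested. The subtraction removed 55.8% of WT and 20.4% of PIGinH11 member UMIs, and thinning left out 2 and 25 members. The subtracted profile was that of all other barcodes, scaled to PRSS2, CPB1 and PNLIP. It was not a profile of empty droplets, so it can also remove RNA that belongs to the nuclei. The summed fibrillar collagen ratio was -0.36 under median-of-ratios scaling, -0.81 after subtraction and -0.37 in the EBF2 subset. Ratios past 2-fold reversed for ERBB3 (1.67) and RPL3 (1.78) after subtraction, PLAT without members rich in other markers (-0.65) and with 4 rule genes (-0.63), RFX2 (-1.24) and SEMA6D (-0.10) in the NEGR1 subset, and RPS23 (0.0303) in the EBF2 subset; the cause was not tested. The heat shock median (-1.02) turned to 0.46 after subtraction, over the 3 genes left. Of 1291 gene values under alternatives, 160 left the interval of the ratio reported without reversing the sign of a 2-fold call. Some of these fell under 2-fold, such as KAZN at 0.90 after subtraction. Of 412 list medians 16 moved, 4 of them with a change of sign from a median within 2-fold, while 5 list medians had no finite value after subtraction. At least 2-fold under each alternative run were 41 of the 94 called genes examined. The subset alternatives, the split without NEGR1 and the share with 4 rule genes were chosen after seeing the data. Genes below 50 UMIs were not measurable at this depth. No paired analysis was possible because each group has 1 library.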

Other observations

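Some genes outside the lists also stood apart in the stellate and fibroblast nuclei, and they were chosen after their values were seen. The metallothionein genes MT1A and MT1X, whose products bind zinc and copper, were lower in the PIGinH11 library, and MT3, with 25 and 2 UMIs, was too low to measure. MT1A was at 818 CPM in WT (157 of 178 nuclei) and 141 CPM in PIGinH11 members (34 of 174 nuclei), a log2 ratio of -2.54, beside -2.07 in the other barcodes. MT1X was at 580 and 48.7 CPM (-3.57), beside -2.38. PTGER3, a prostaglandin E receptor, had 155 and 9 UMIs (-3.18), beside -1.87. THBS1 was at 854 and 387 CPM (-1.14), beside 0.67, and the neurotrophin receptor gene NTRK3 at 289 and 127 CPM (-1.19), beside 1.37.

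TLL1, KCNIP1 and PLAT had 57, 64 and 58 UMIs in PIGinH11 members and 0, 3 and 3 in WT members. Of these PIGinH11 UMIs 29, 51 and 30 lay in a single nucleus for the respective gene, so these values rest on few nuclei. At 0 WT UMIs, up to 4.28 CPM of TLL1 is allowed.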
